A study of Mus musculus with 153 samples.

Results

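The genes described here encode ligands and receptors of the epidermal growth factor (EGF) family, together with 1 inhibitor that the pathway induces. They are the ligand genes Areg (amphiregulin), Ereg (epiregulin), Hbegf (heparin-binding EGF-like growth factor), Tgfa (transforming growth factor alpha), Btc (betacellulin) and Epgn (epigen), the receptor genes Egfr, Erbb2 and Erbb3, and the feedback inhibitor gene Errfi1. Each gene was taken as the probe set with the highest mean among those annotated with that symbol alone, and each of the 9 genes found had 1 such probe set. No probe set carried the symbol Areg alone, so 9 of the 10 genes, of 18810 genes in all, have values.

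Tail skin was snap frozen from untreated backcross mice aged 8 weeks (83 males and 70 females), and each mouse gave 1 Affymetrix array. The founders were Mus spretus males and FVB/N females that lacked both Hras copies (Hras -/-). The F1 hybrid daughters were then mated with FVB/N males that were Hras -/- or Hras -/+. The mice compared are HET (Hras +/-, 19 males and 18 females) and WT (Hras +/+, 62 males and 52 females), after 2 arrays of WT males labelled outliers were left out. Of the mice kept, plates 1, 2 and 3 held 49, 46 and 56. The null allele was present in the germ line, so every cell type of a HET mouse carried it. The labels used here do not say which Mus spretus alleles each mouse inherited, and genotype and alleles linked to Hras cannot be told apart. Mice of 1 cross are also relatives, and the labels used here give no litters.

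EGF family ligands are made as membrane-anchored precursors, and shedding by ADAM proteases releases the active growth factor. Areg, Tgfa and Epgn bind the EGF receptor, Hbegf, Btc and Ereg bind that receptor and Erbb4, Erbb3 binds neuregulins and signals through a partner, and Erbb2 is the partner receptor without a known ligand of its own. The receptors signal through Ras, the protein family to which Hras belongs, and through the MAPK cascade. In skin this pathway acts in keratinocyte growth, wound repair and the shape and cycle of the hair follicle, and the product of Errfi1 binds the receptor's kinase domain and restrains it.

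The arrays carried the marks of skin with its epidermis and dermis. The means of listed markers were set against the upper quartile of all gene means. Above it lay 9 of 10 measured genes of basal epidermis and 12 of 12 of suprabasal epidermis. For dermal fibroblasts it was 10 of 11, against 0 of 11 for skeletal muscle. Sex-linked transcripts went against the label in 0 mice. Array medians ran from 4.67 to 4.89 on the deposited log2 scale. Of the 18810 genes, 4 (0.0213%) were called for plate by limma's F test at a Benjamini-Hochberg adjusted p under 0.05, 152 (0.808%) had an unadjusted p under 0.05, and 0 of the 9 family genes had either. Whether plate differences had been removed before deposit was not tested. All values below are deposited log2 expression values, on which a difference of 1 is a doubling. In whole skin, fewer cells of a type and less RNA per cell cannot be told apart.

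Promoter windows are shown because members of the family varied together across mice, as described further on. Each runs from 250 bases before to 50 after a RefSeq gene start (assembly GRCm38.p6), read on the gene's strand. Windows of 7 of the 10 genes were used, and no window of Ereg, Hbegf or Erbb3 was examined. Whether promoters of those genes hold the motifs was not tested. Capitals mark matches on either strand to 6 motifs, which were chosen after the values were seen: the AP-1 site TGANTCA, the cyclic AMP response element (CRE) TGACGTCA, the GC box GGGCGG, the TATA box TATAAA, the E box CACGTG and the palindromic glucocorticoid response element. Of 32851 windows of the same length, 7.81% held the AP-1 site, 1.79% the CRE, 35.7% the GC box, 13.6% the TATA box, 7.15% the E box and 0.00913% the glucocorticoid response element.

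Errfi1 has 2 windows in the table. The one shown, chr4:150854820-150855119 on the plus strand, held 1 CRE, 3 GC boxes of which a pair overlap, and 1 TATA box, and 66.7% of its bases were G or C. A window of Slc25a25, chr2:32424017-32424316 on the minus strand, is set beside it because this gene was among the 3 of all genes most similar to Hbegf, and Hbegf varied with Errfi1. It held 1 CRE and 1 GC box. This window was picked after the matches were seen. The other windows scanned for Errfi1 and for the genes most similar to Errfi1 or Hbegf held no exact match to the CRE letters. They were the first window of Errfi1, the other 2 of Slc25a25, and those of Fos, Nr4a1, Per1 and Klf9. Variants that differ from those letters were not searched for. No window of Sik1, also among the 3 genes most similar to Errfi1, was examined. In the family, the Areg window, not shown, also held 1 CRE, with 2 GC boxes and 1 TATA box. That of Tgfa, not shown either, held 2 GC boxes and no CRE.
Errfi1: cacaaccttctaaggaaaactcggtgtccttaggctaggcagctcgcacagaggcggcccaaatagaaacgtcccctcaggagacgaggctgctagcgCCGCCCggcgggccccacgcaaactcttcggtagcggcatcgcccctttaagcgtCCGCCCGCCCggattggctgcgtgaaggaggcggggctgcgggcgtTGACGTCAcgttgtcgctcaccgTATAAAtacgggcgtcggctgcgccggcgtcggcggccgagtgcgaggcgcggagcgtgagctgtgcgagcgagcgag
Slc25a25: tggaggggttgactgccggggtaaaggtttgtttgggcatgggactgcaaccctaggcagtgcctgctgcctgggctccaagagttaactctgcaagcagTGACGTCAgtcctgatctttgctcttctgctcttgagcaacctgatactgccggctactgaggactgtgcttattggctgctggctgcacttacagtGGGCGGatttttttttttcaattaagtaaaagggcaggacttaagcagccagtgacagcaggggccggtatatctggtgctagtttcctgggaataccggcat

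The windows of Egfr (chr11:16751953-16752252, plus strand) and Erbb2 (chr11:98412234-98412533, plus strand) are shown because these receptor genes, both on chromosome 11, varied together. Their GC content was 62.3% and 66%, against a median of 52.7% over all windows. Egfr held 1 GC box, and none of the 6 motifs was matched in the Erbb2 window. No match says only that those letters are not in these 300 bases.
Egfr: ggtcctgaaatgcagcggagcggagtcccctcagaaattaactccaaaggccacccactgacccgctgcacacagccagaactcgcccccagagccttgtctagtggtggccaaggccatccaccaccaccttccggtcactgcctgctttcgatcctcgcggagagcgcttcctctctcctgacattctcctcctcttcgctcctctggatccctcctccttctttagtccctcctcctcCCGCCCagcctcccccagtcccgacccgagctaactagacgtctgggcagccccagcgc
Erbb2: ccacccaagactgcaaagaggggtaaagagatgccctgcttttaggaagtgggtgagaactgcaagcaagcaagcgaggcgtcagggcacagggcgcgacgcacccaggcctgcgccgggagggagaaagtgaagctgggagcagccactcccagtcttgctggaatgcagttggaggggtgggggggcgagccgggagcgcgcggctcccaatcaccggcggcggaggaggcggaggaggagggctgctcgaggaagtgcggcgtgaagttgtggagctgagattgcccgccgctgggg

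Epgn, Ereg, Areg and Btc lie together on chromosome 5, and among genes with values Epgn and Btc are the neighbours of Ereg on either side. The windows of Epgn (chr5:91027267-91027566, plus strand) and Btc (chr5:91402945-91403244, minus strand) are shown for that reason. The Epgn window, with a GC content of 47.3%, held 1 TATA box, and the Btc window, at 60.3%, matched none of the motifs.
Epgn: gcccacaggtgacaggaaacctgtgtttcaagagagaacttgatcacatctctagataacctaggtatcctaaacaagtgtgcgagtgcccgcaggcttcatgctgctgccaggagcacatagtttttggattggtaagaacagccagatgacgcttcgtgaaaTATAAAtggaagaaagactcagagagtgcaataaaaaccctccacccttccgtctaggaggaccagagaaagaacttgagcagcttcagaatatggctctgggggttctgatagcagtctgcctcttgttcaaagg
Btc: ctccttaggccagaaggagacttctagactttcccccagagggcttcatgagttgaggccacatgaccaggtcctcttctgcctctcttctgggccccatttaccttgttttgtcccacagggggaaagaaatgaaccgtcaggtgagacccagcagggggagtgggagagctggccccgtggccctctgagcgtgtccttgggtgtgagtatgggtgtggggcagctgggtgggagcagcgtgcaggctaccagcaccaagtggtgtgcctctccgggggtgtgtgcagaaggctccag

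The first comparison asks whether losing 1 Hras copy went with a different level of these transcripts. None of the 9 genes passed the test. In a limma model with genotype, sex and plate, 0 of 9 were called, against 21 of all 18810 genes (0.112%), and their adjusted p ran from 0.481 to 0.993. The fitted HET minus WT difference lay below 0 for 8 of the 9, with a median of -0.058 over the 9 and of -5.9e-05 over all genes. An unadjusted p under 0.05 was reached by 2 of the 9, Errfi1 and Hbegf, and by 1235 of all genes (6.57%). On simulated data with the same design, 73 of 100 genes changed by 0.2 and 99 of 100 changed by 0.4 were recovered for genotype, and 10 unchanged genes were called. These shares are over genes of all spreads, with 100 genes changed at each size and noise independent between genes. The adjusted threshold is stricter when fewer genes change, and the real fit called 21. Recovery in the real data can therefore be lower than these shares. Ereg, Hbegf, Btc and Epgn varied more than most genes (SE of the difference 0.078 to 0.10), and recovery at their spread was not simulated.

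Among the ligands, Hbegf, whose product is a ligand made by keratinocytes at wound edges, had a lowest, median and highest value of 5.89, 6.60 and 7.61 in HET mice, against 5.81, 6.76 and 8.05 in WT mice. The HET range lay inside the WT range. Here and below, the larger number of WT mice can by itself widen their range. Means of Hbegf were 6.59 ± 0.31 in the 37 HET mice and 6.77 ± 0.45 in the WT mice (SD). The difference was -0.19 ± 0.080 (SE; 95% interval -0.35 to -0.037; unadjusted p = 0.016, limma adjusted p = 0.63), and it was below 0 on each plate, at -0.14, -0.14 and -0.26 on plates 1, 2 and 3.

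Tgfa, known from mutant mice with wavy hair, gave 6.46, 7.22 and 7.55 as the lowest, median and highest value in HET mice, against 6.47, 7.27 and 7.84 in WT mice. The groups overlapped almost throughout. The difference was -0.090 ± 0.047 (SE; 95% interval -0.18 to 0.0041; limma adjusted p = 0.78) and lay below 0 on all 3 plates. Genes of the hair shaft and inner root sheath, with which Tgfa varied across mice, had differences of the same sign. All 14 measured genes of that list had a difference below 0, 0 of them called, with a median of -0.24. Their mean level ran from 7.53 to 9.88 with a median of 8.54 in HET mice, against 7.19 to 10.1 with a median of 8.82 in WT mice. With scores for hair shaft, skeletal muscle and dermal fibroblast genes added to the model, the Tgfa difference was -0.046 ± 0.041. These scores entered together, and the part of the hair shaft list in the Tgfa difference was not tested.

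Epgn values ran from 3.70 through a median of 4.49 to 5.03 in HET mice, against 3.62, 4.56 and 7.23 in WT mice. The WT maximum was 1 male on plate 3, and the next mouse stood at 5.86. Its difference was -0.12 ± 0.088 (SE; limma adjusted p = 0.88). The mean of Epgn, 4.53, lay below the median of all gene means, 5.45, and the files hold no detection call. For Ereg the lowest, median and highest values were 6.33, 7.08 and 7.72 in HET mice, against 6.14, 7.16 and 8.16 in WT mice, a difference of -0.056 ± 0.078. Btc gave 6.19, 8.04 and 8.55 in HET mice, against 6.15, 7.90 and 8.87 in WT mice, and the difference was -0.058 ± 0.10. For both genes the HET range lay inside the WT range, and neither difference was larger than its SE.

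The receptor genes had the narrowest intervals. Egfr stood at 8.34, 8.59 and 8.90 (lowest, median, highest) in HET mice, against 8.31, 8.61 and 8.91 in WT mice, and the 95% interval of the difference ran from -0.045 to 0.041. Erbb2 gave 8.44, 8.77 and 9.15 in HET mice, against 8.53, 8.78 and 9.04 in WT mice, with an interval from -0.059 to 0.052. HET mice held both the lowest and the highest Erbb2 value. Erbb3 gave 8.09, 8.79 and 9.14 in HET mice, against 8.35, 8.76 and 9.16 in WT mice, with an interval from -0.068 to 0.087. Plates differed in sign for Erbb3: the HET minus WT difference was -0.17 ± 0.071 on plate 2 and 0.12 ± 0.056 on plate 3 (SE). The genotype by plate term had an unadjusted p of 0.0080 for Erbb3 and 0.041 for Erbb2, but limma adjusted p of 0.35 and 0.52. That term called 0 of all genes (0.0%), with 1706 (9.07%) at an unadjusted p under 0.05.

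Errfi1, the feedback inhibitor, had the smallest p of the family. Values were 8.26, 8.62 and 9.18 (lowest, median, highest) in HET mice, against 8.21, 8.80 and 10.2 in WT mice. The HET range lay inside the WT range. Means were 8.67 ± 0.23 in HET and 8.83 ± 0.31 in WT mice (SD). The difference was -0.16 ± 0.055 (SE; 95% interval -0.27 to -0.052; unadjusted p = 0.0040, limma adjusted p = 0.48), and 0.824% of all genes had a smaller p. On plates 1, 2 and 3 it was -0.20, -0.092 and -0.17. With the hair shaft, skeletal muscle and fibroblast scores in the model it was -0.18 ± 0.054 (adjusted p = 0.32). Mast cell genes, the list with which Errfi1 varied most, were not in that model. All 9 of them had a HET minus WT difference below 0, 0 of them called, with a median of -0.076. Their mean level ran from 5.34 to 6.84 with a median of 5.95 in HET mice, against 5.29 to 6.93 with a median of 6.07 in WT mice, and their part in the Errfi1 difference was not tested.

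**Figure D1:**
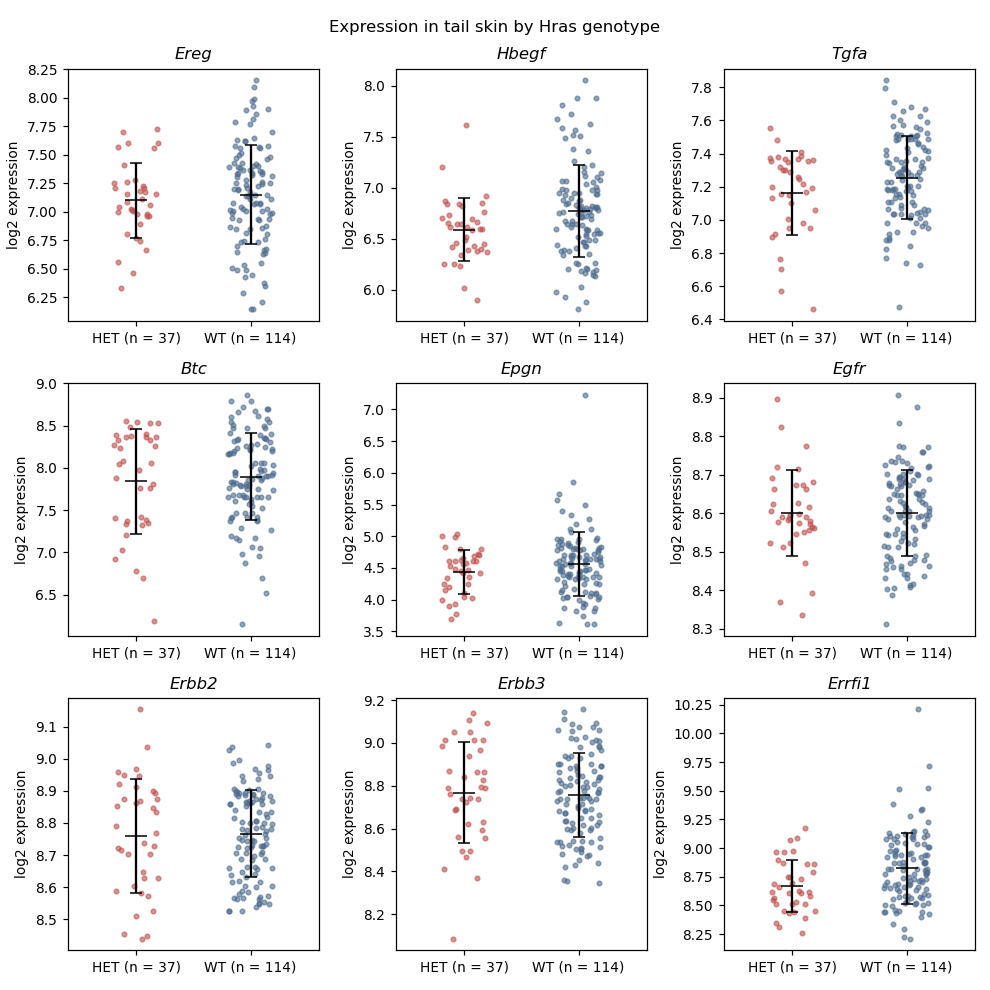
Deposited log2 expression (vertical axis, a different range in each panel) of the 9 measured genes in HET and WT tail skin, 1 point per mouse, with bars for the mean and 1 SD. The groups overlap in every panel, and 1 WT mouse stands at 7.23 for Epgn and another at 10.2 for Errfi1.

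Sex gave the same outcome. Of the 9 genes, 0 were called, against 680 of all genes (3.62%), 2 of 9 had an unadjusted p under 0.05 against 3077 of all genes (16.4%), and limma adjusted p ran from 0.159 to 0.849. Btc values were 6.15, 7.80 and 8.79 (lowest, median, highest) in males, against 6.51, 8.05 and 8.87 in females. Males lay lower at the bottom, the middle and the top of the range, with wide overlap. The male minus female difference was -0.22 ± 0.087 (SE; 95% interval -0.39 to -0.045; unadjusted p = 0.014, limma adjusted p = 0.16), at -0.16, -0.20 and -0.27 on plates 1, 2 and 3. Of 9 measured adipocyte genes, with whose score Btc varied across mice (r = 0.26), 3 fell in males (Adipoq, Pnpla2 and Fabp4), all 9 differences lay below 0 and their median was -0.21. The mean level of that list ran from 5.18 to 6.41 with a median of 5.76 in males, against 5.35 to 6.70 with a median of 5.93 in females. The list with which Btc varied most, suprabasal and cornified epidermis (r = 0.50), had 2 of 12 genes that rose in males (Tgm3 and Krt1) and 0 that fell, 8 differences above 0 and a median of 0.026. Its mean level ran from 10.1 to 10.9 in males and from 10.2 to 10.9 in females, with a median of 10.5 in both. The part of either list in the Btc difference was not tested.

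Tgfa gave 6.47, 7.19 and 7.79 in males, against 6.46, 7.31 and 7.84 in females, a difference of -0.082 ± 0.041 (SE; limma adjusted p = 0.30). The hair shaft list again lay on the same side, with 14 of 14 differences below 0, 3 genes called (Gata3, Foxn1 and Krt25) and a median of -0.30. With the 3 cell type scores together in the model, the Tgfa difference was -0.028 ± 0.036. The part of the hair shaft list in this difference was not tested either. The other 7 genes had differences between -0.080 (Errfi1) and 0.12 (Epgn). For Egfr, Erbb2 and Erbb3 the 95% intervals stayed within -0.087 and 0.046. A genotype by sex term called 0 of the 9 and 0 of all genes (0.0%), with 0 of the 9 and 895 of all genes (4.76%) at an unadjusted p under 0.05. The sex by plate term also called 0 of the 9 and 0 of all genes, and 1 of the 9, Erbb2, had an unadjusted p under 0.05 (0.023), against 5.74% of all genes.

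**Figure D2:**
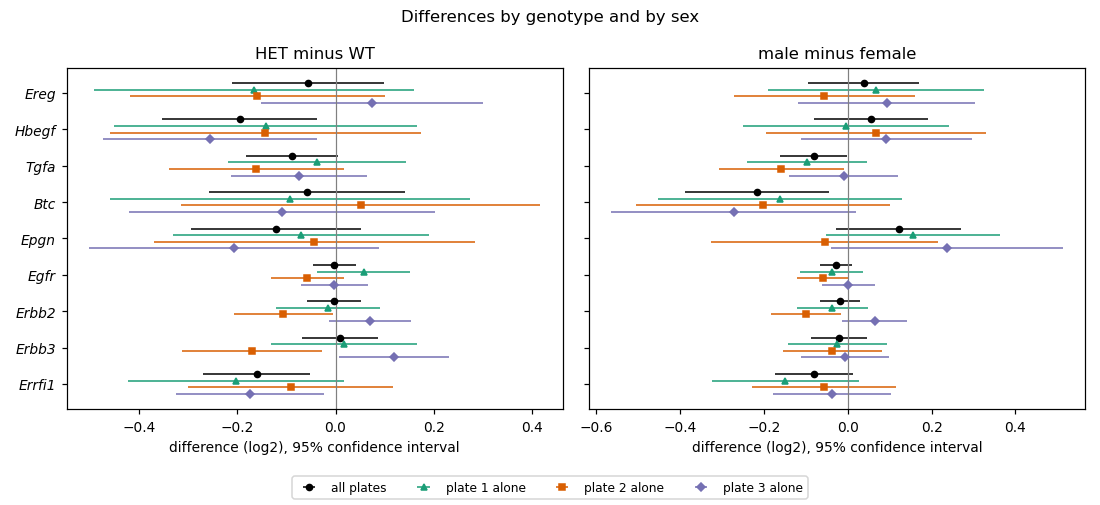
Fitted differences in log2 expression (horizontal axis) with 95% confidence intervals, HET minus WT on the left and male minus female on the right, over all plates (black) and on each plate alone (colours). Errfi1 (-0.16) and Hbegf (-0.19) lie below 0 on all 3 plates for genotype and Btc (-0.22) does so for sex, while Erbb3 changes sign between plates 2 and 3.

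The genes differed in how much they varied from mouse to mouse. The SD across mice after genotype, sex and plate were fitted was 0.54 for Btc, 0.47 for Epgn, 0.42 for Hbegf and 0.42 for Ereg, above the SD of 94.1% to 97.5% of all genes, whose median was 0.22. Errfi1 (0.29) and Tgfa (0.25) lay in the middle, above 79.1% and 64.1% of genes. Erbb3 had an SD of 0.21, above 40.6% of genes, and Erbb2 one of 0.15, above 11.5%. For Egfr the SD was 0.11, above that of 2.21% of genes, and its lowest and highest mouse were 0.596 apart, against 2.72 for Btc. The spread on the log2 scale also depends on each probe set.

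Covariation was measured as Pearson's r between these residuals over all mice kept, with two-sided permutation tests (100000 draws, smallest possible p 1e-05). Benjamini-Hochberg adjustment ran over the 36 pairs that 9 genes allow. Of these, 20 were called, 19 with a positive and 1 with a negative r, 21 had an unadjusted p under 0.05, and all 20 kept 1 sign on the 3 plates. The weakest call had an absolute r of 0.182, and 12.3% of the pairs of all genes reached that size. With Spearman's rho 23 pairs were called.

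The highest values belonged to 2 of the 3 receptor pairs. Erbb2 and Erbb3 had r = 0.55 (rho 0.51, adjusted p = 6e-05), with 0.40, 0.60 and 0.61 on plates 1, 2 and 3 and 0.51 once the 2 most distant mice were dropped. Egfr and Erbb2 had r = 0.46 (rho 0.41, adjusted p = 6e-05), with 0.41, 0.54 and 0.46 on the plates. Seen from Egfr, 99.8% of all genes had a lower r than Erbb2 did. Egfr and Erbb3 had r = 0.28 over all mice but 0.02, 0.59 and 0.32 on plates 1, 2 and 3, so the relation was not seen on plate 1. In HET mice alone the 3 receptor pairs had r of 0.73, 0.68 and 0.61, against 0.44, 0.37 and 0.15 in WT mice, and this difference between genotypes was not tested.

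Among ligands, Ereg and Btc had r = 0.38 (rho 0.36, adjusted p = 0.000103) and, within plates, 0.54, 0.23 and 0.36. Ereg and Hbegf also had r = 0.38 (rho 0.30, adjusted p = 6e-05), with 0.52 and 0.54 on plates 1 and 2 and 0.11 on plate 3. Hbegf and Btc, which each varied with Ereg, had r = -0.02. Tgfa varied with receptors, at r = 0.41 with Erbb3 (rho 0.36; 0.54, 0.51 and 0.20 on the plates) and r = 0.38 with Erbb2 (rho 0.39; 0.27, 0.48 and 0.38), both at an adjusted p of 6e-05.

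For Errfi1 the strongest relation in the family was with a ligand. Its r with Hbegf was 0.36 (rho 0.38, adjusted p = 6e-05; 0.39, 0.43 and 0.26 on the plates). Its r was -0.17 with Erbb2, -0.15 with Tgfa and -0.14 with Egfr, none of them called (adjusted p = 0.0595, 0.103 and 0.127), and for Egfr it was -0.25, -0.32 and 0.12 on the 3 plates. The called negative pair was Hbegf and Erbb2, at r = -0.18 (rho -0.24, adjusted p = 0.0455), with -0.05, -0.17 and -0.31 on the plates. It lost its call when each array was centred on its median (r = -0.09, adjusted p = 0.39). Ereg, Hbegf, Btc and Erbb3 had r between -0.19 and -0.23 with the array median, and the other 5 genes between -0.03 and -0.0063.

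**Figure D3:**
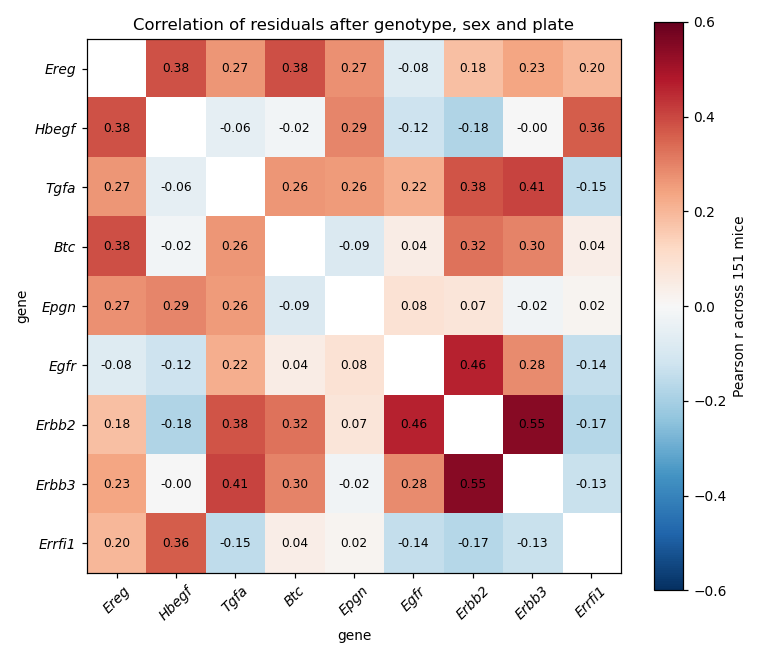
Pearson's r across mice between the residuals of each pair of measured genes after genotype, sex and plate were fitted (red positive, blue negative). The receptor pairs Erbb2 with Erbb3 (0.55) and Egfr with Erbb2 (0.46) are the darkest cells, and the Errfi1 row is red with Hbegf (0.36) and pale blue with the receptors.

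For each gene, the 3 most similar of all genes are given as a description, since they were chosen by their r. The closest to Hbegf were Fos (r = 0.64), which encodes an AP-1 subunit, Nr4a1 (0.62), an immediate early nuclear receptor, and Slc25a25 (0.60), a mitochondrial carrier. Fos and Nr4a1 are textbook immediate early genes. Errfi1 was closest to Sik1 (0.63), a kinase induced by cyclic AMP, Per1 (0.63), a clock gene, and Klf9 (0.62), a gene induced by glucocorticoids. Its most negative r was with Prc1 (-0.53), a protein of dividing cells. Within plates the r of Hbegf with Fos was 0.57, 0.70 and 0.66, and that of Errfi1 with Per1 was 0.57, 0.70 and 0.62.

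Ereg was most similar to Klk9 (r = 0.61), a kallikrein protease, Alox12b (0.60), a lipoxygenase of the skin barrier, and Dusp5 (0.58), a phosphatase of the ERK kinases. Btc had the closest relations of the family, with Elovl1 (0.73), an elongase of very long fatty acids, Plcxd1 (0.72) and Asah2 (0.71), a ceramidase, and -0.56 with the lipid transporter gene Mfsd2a. Tgfa was most like Otub2 (0.66), a deubiquitinase, Ephb3 (0.65), an ephrin receptor, and Dnase1l2 (0.63), a nuclease of cornifying cells and hair. Epgn was nearest to Tubb6 (0.54), Nppb (0.51), a natriuretic peptide, and Klk13 (0.49), and its single high mouse enters these values. By rho, which limits the weight of that mouse, they were 0.45, 0.40 and 0.44.

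Egfr was most similar to Tenm2 (r = 0.58) and Fat2 (0.57), which encode adhesion proteins, and Tmem131l (0.57), though for Tenm2 the plates gave 0.82, 0.55 and 0.37. Erbb2 was nearest to Dop1b (0.67), Casz1 (0.65), a zinc finger factor, and Pdzd2 (0.63). Erbb3 was nearest to Tjp3 (0.62), of tight junctions, Prdm1 (0.61), a transcriptional repressor, and Esrp1 (0.61), an epithelial splicing factor. The most negative values were -0.51 (Emc7) for Egfr, -0.55 (Mpp6) for Erbb2 and -0.58 (Myl6, a myosin light chain) for Erbb3. For the ligands they were -0.46 (Runx1) for Ereg, -0.50 (Zfp59) for Hbegf, -0.54 (Pdp1) for Tgfa and -0.46 (Dip2c) for Epgn. Some of the genes named lie on the chromosome of their family gene. Tenm2 and Fat2 are on chromosome 11 with Egfr, and Plcxd1 is on chromosome 5 with Btc. Tjp3, Prdm1 and Myl6 are on chromosome 10 with Erbb3. The part of shared inheritance in these values was not tested.

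**Figure D4:**
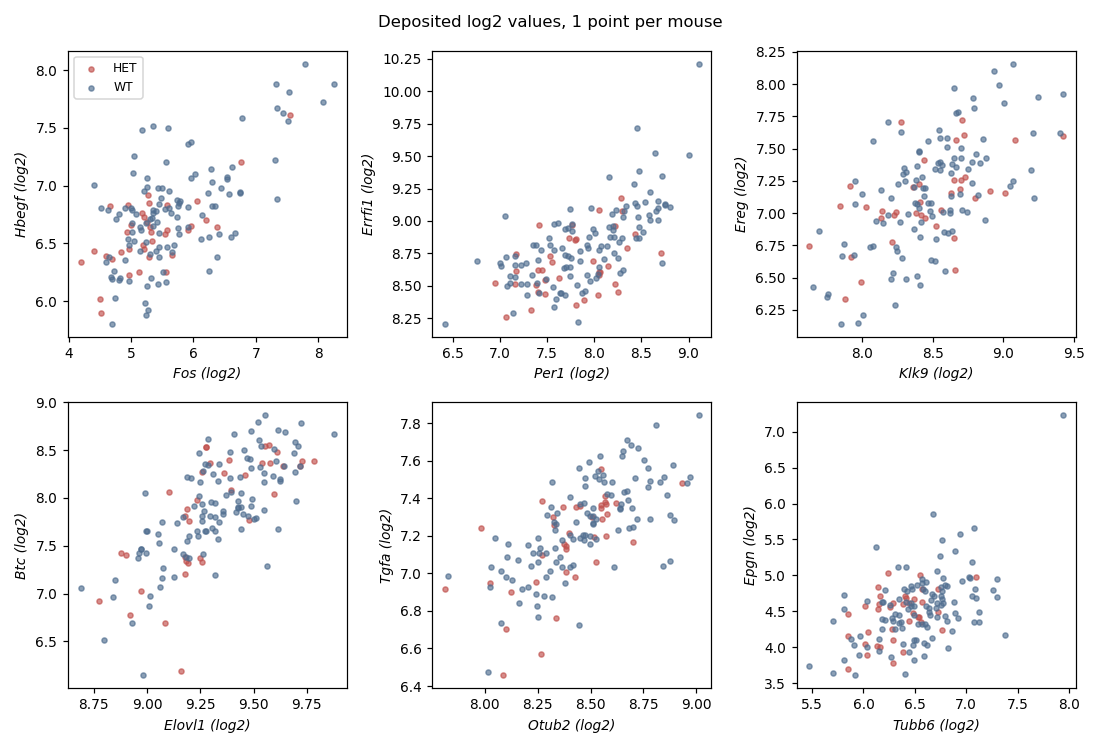
Deposited log2 values of 6 family genes (vertical axes) against the most similar or, for Errfi1, second most similar gene (horizontal axes), 1 point per mouse, HET red and WT blue. Points rise together in every panel, and single mice stand apart at 7.23 for Epgn and 10.2 for Errfi1.

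Marker lists of 16 cell types gave 144 relations with the 9 genes, each list scored as the mean standardised residual of its measured genes. Of these, 51 were called after adjustment over the 144, 20 of them positive, and 20.6% of the same relations of all genes reached the size of the weakest call. The suprabasal and cornified epidermis list went with Btc (r = 0.50; 0.45, 0.59 and 0.48 on the plates), Erbb3 (0.49; 0.37, 0.56 and 0.53), Ereg (0.47; 0.54, 0.23 and 0.58) and Erbb2 (0.36; 0.13, 0.44 and 0.47), each at an adjusted p of 0.000111. With rho these values were 0.52, 0.45, 0.45 and 0.35. For Egfr the highest value was with basal epidermis (r = 0.31, rho 0.28, adjusted p = 0.00102).

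Tgfa stood with hair shaft and inner root sheath genes (r = 0.47, rho 0.50, adjusted p = 0.000111; 0.58, 0.46 and 0.38 on the plates) and had r = -0.33 with the sebaceous gland list. Epgn had its highest value with stress keratins and alarm genes (r = 0.44, rho 0.37, adjusted p = 0.000111), which was 0.35 without the 2 farthest mice. Errfi1 went with mast cell genes (r = 0.43, rho 0.34, adjusted p = 0.000111), at 0.42, 0.45 and 0.42 on the plates and 0.34 without the 2 farthest mice. The values of Hbegf were smaller, at 0.23 with macrophage and dendritic cell genes and 0.22 with stress keratins, and the second was 0.15 without the 2 farthest mice.

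Several genes had negative values with the lists of the dermis. Erbb3 had r = -0.55 with endothelial genes (rho -0.52) and -0.52 with dermal fibroblast genes (rho -0.49), Erbb2 -0.36 and -0.39, and Egfr -0.30 and -0.37, all called. For Erbb3 the endothelial values were -0.47, -0.66 and -0.51 on the 3 plates. Tgfa had r = -0.33 with endothelial genes (adjusted p = 0.000111) and -0.20 with fibroblast genes (adjusted p = 0.039). Ereg had r = -0.24 and -0.27 with the same lists, both called, though for fibroblast genes the plates gave 0.027, -0.25 and -0.54. With hair shaft, skeletal muscle and fibroblast scores also removed, Erbb2 with Erbb3 had r = 0.44 and Egfr with Erbb2 r = 0.37, both still called (adjusted p = 5.14e-05). The epidermal and endothelial scores, with which the receptor genes also varied, were not removed. Their part in these pairs was not tested.

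**Figure D5:**
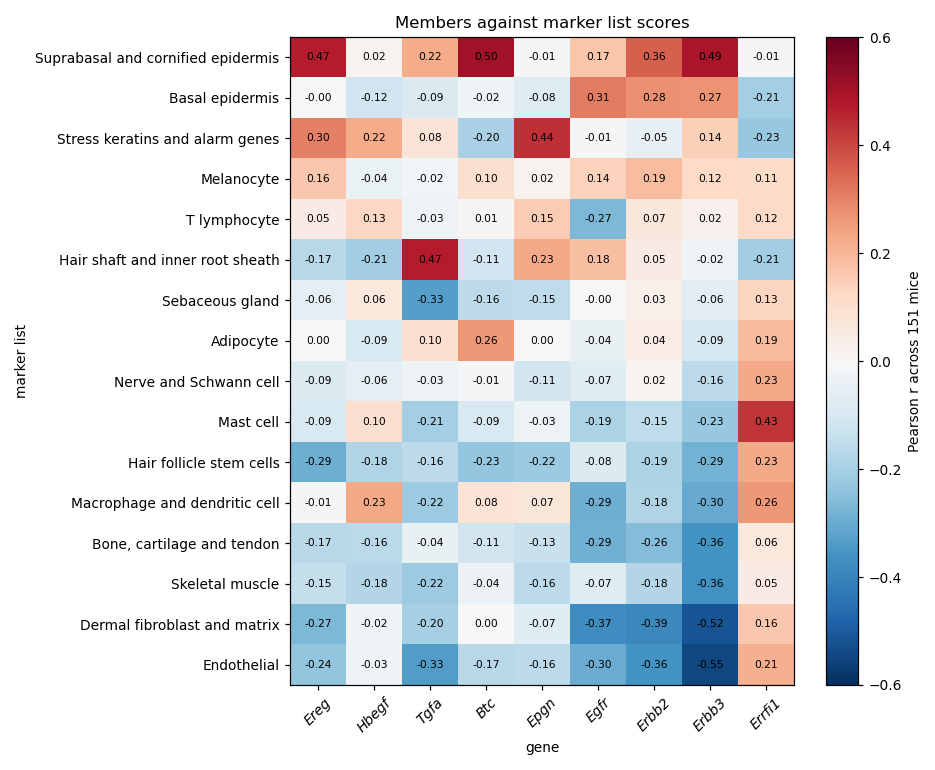
Pearson's r across mice of each measured gene (columns) with the score of each of 16 cell type marker lists (rows), red positive and blue negative. Suprabasal epidermis is red for Btc (0.50), Erbb3 (0.49) and Ereg (0.47), the hair shaft row for Tgfa (0.47), the mast cell row for Errfi1 (0.43), and the endothelial and fibroblast rows are blue for the receptors, Tgfa and Ereg.

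Position on the chromosome was set against covariation, because long stretches of parental chromosome are inherited together in a backcross. Counts are over the 100 genes with the largest absolute r with each gene, of either sign. For Errfi1, 19 of them lay on its chromosome, 4, and 11 of these within 100 measured genes of it. The median over all genes was 7, and 84.6% of genes had fewer than Errfi1. Chromosome 4 holds 5.92% of all genes. Egfr had 13 and Erbb2 12 on chromosome 11 (7.81% of genes), and Erbb3 had 12 on chromosome 10 (4.65%). Hbegf had 8 on chromosome 18 (2.34%), 6 of them within 100 measured genes of it. Ereg and Epgn had 6 each, and Tgfa and Btc 3 each. On chromosome 5, Ereg had r = 0.27 with its neighbour Epgn and 0.38 with Btc, but Btc and Epgn had r = -0.09. On chromosome 10, Erbb3 had r = 0.44 with Pa2g4, whose product binds Erbb3, and -0.47 with Rps26, a ribosomal protein gene, on its other side. The remaining neighbours lay between -0.17 and 0.18.

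Of the rest of the pathway, no listed gene passed the test for genotype. Among 6 other family ligands and receptors, Nrg1, a ligand of Erbb3, had a HET minus WT difference of -0.16 ± 0.054 (SE; unadjusted p = 0.0042, limma adjusted p = 0.49) and Nrg3 one of 0.067 ± 0.033 (adjusted p = 0.74). Among 13 shedding and trafficking genes, the protease gene Adam8 had -0.21 ± 0.087 and Nkd2, which carries Tgfa to the cell surface, -0.13 ± 0.061. For 22 adaptors and signal carriers the smallest p belonged to Plcg1 (0.049 ± 0.022) and Sos1 (0.045 ± 0.025). For 22 receptor brakes it belonged to Cblb (-0.12 ± 0.037, adjusted p = 0.40), a ubiquitin ligase, and Lrig2 (0.057 ± 0.031).

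Transcriptional outputs of the MAPK cascade, 16 measured of 19 listed with Hbegf left out, had 12 differences below 0 and a median of -0.038, with 0 called against 0.112% of all genes. Dusp6, an ERK phosphatase, stood at -0.20 ± 0.056 (SE; unadjusted p = 0.00054, limma adjusted p = 0.22) and Egr1, an immediate early factor, at -0.21 ± 0.071 (adjusted p = 0.47). For sex, 1 gene fell in each of 3 lists, against 2.51% of all genes called lower in males. They were Timp3, an inhibitor of ADAM17, at -0.18 ± 0.038 (adjusted p = 0.00108), Stat5a, a transcription factor, at -0.23 ± 0.046 (adjusted p = 0.000273), and Socs2, a suppressor of cytokine signalling, at -0.30 ± 0.055 (adjusted p = 8.4e-05). None of the 6 other ligands and receptors and none of the 16 MAPK outputs was called for sex.

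Across mice the family followed different parts of these lists. Rhbdf2, needed for ADAM17 to reach the cell surface, had r = 0.48 with Erbb3 and 0.42 with Erbb2, and Adam17 itself had r = 0.31 with Tgfa and 0.28 with Btc. Among the brakes, the ubiquitin ligase gene Cblc had r = 0.50 with Erbb3 and 0.46 with Erbb2, and Cbl had 0.42 with Egfr. Among the lowest values, the receptor phosphatase gene Ptprj had r = -0.50 with Erbb3 and -0.45 with Tgfa, and the adaptor gene Gab2 had -0.38 with Tgfa and -0.37 with Egfr. Of the adaptors, Pik3cb had r = 0.57 with Erbb3 and 0.44 with Tgfa, and Gab2 had 0.48 with Errfi1. Of the MAPK outputs, Dusp5 had r = 0.58 with Ereg, Spry1 0.53 with Errfi1 and Dusp6 0.39 with Epgn. Each named gene has the highest or lowest r of its list with the family gene it is named beside, was picked after its values were seen and is a description, and list medians lay between -0.18 and 0.14.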

How the data were processed

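Tail skin RNA was extracted with Trizol, cleaned on a column and labelled for Affymetrix arrays, per the labels. The deposited values are log2 expression per probe set, made by the authors with RMA, per the submitters' processing notes. The RMA version was not given in the sources used here. A later adjustment is not recorded there either. Among 35385 probe sets with values, 21201 had 1 symbol, 1881 several and 12303 none here. Identifiers of 21168 matched RefSeq GRCm38.p6 and 33 did not, which left 18810 genes. Every family gene is named, as are called or smallest-p pathway genes and the highest or lowest correlations. Members and lists were chosen with earlier results of these data known.

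Differences were fitted with limma 3.58.1 and data.table (version 1.17.8) in R 4.3.3, with genotype, sex and plate, and adjusted by Benjamini-Hochberg over 18810 genes, called under 0.05. The script was tested on simulated data. Correlations and plots were made in Python 3.11.15 with scipy 1.17.1, pandas 2.3.3, numpy 2.4.6 and matplotlib 3.10.9. Cell type scores used as covariates were means of standardised deposited values, and scores in correlations were means of standardised residuals. Alternatives changed scaling, filter, probe set rule, covariates, arrays, plates, sexes and genotypes. Precision is set by how many mice a group holds. No array was counted as a repeat of another (highest correlation 0.986). Hras expression is not reported here, and genotype labels were not checked against it. The planned 45 pairs became 36 because Areg has no values.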

Additional observations from a re-analysis of the deposited data

Results flagged for a closer look

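Dixon's test was run for each of the 9 genes in groups of at most 10 mice of 1 genotype and plate. Only the HET mice of plate 1 (9 mice) and of plate 2 (10 mice) were that few. This gave 18 tests, which share mice and so are not independent. In them 1 value stood apart from the rest, which chance alone gives in about 1 in 20 tests. It was Tgfa in a HET female on plate 2, at 6.46 with the next HET mouse of that plate at 6.90. The gap was 0.480 of the group's range of 10 mice.

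The 2 arrays labelled outliers, both of WT males on plate 2, entered no main comparison. Of their 18 values for the 9 genes, 3 lay outside the range of all other mice. Replicate 50 of the WT group had 8.325 for Erbb2, against 8.44 to 9.15 in the others. Replicate 75 had 9.33 for Erbb3, against 8.09 to 9.16, and 8.187 for Errfi1, against 8.21 to 10.2. The other 15 values fell within the range.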

How the results depend on the processing

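No member was called for genotype, sex, plate or their interactions under any alternative run. Under alternatives, 15 of the genotype values and 9 of the sex values changed their sign and the rest kept it. The HET minus WT differences of Hbegf (-0.26 to -0.14), Errfi1 (-0.20 to -0.092), Tgfa (-0.16 to -0.038) and Epgn (-0.21 to -0.043) stayed below 0 throughout. The others crossed 0. Ereg was 0.075 on plate 3 and 0.057 in females, Btc 0.052 on plate 2 and 0.0077 in females. Egfr was 0.0018 with arrays centred on the median and 0.0018 with quantile normalization, 0.057 on plate 1 and 0.0052 in males. Erbb2 was 0.00022 with the 2 outlier arrays included, 0.00068 median centred, 0.070 on plate 3 and 0.025 in males. Erbb3 was -0.17 on plate 2, -0.014 in females and -0.0018 with cell type scores as covariates. Of the male minus female differences, Ereg was -0.056 on plate 2 and -0.096 in HET mice, Hbegf -0.0038 on plate 1 and -0.0067 with cell type scores, Epgn -0.055 on plate 2, Egfr 0.0018 on plate 3, Erbb2 0.064 on plate 3 and 0.049 in HET mice, and Erbb3 0.024 in HET mice. The cause of these changes of sign was not tested. Of 36 pairs, 20 were called over all mice, and with fewer mice 9, 13 and 7 on plates 1, 2 and 3, 7 in HET mice, 12 in males and 10 in females (the genotype and sex splits were chosen after seeing the data). Of the values of the 10 named pairs, 127 kept their side of the threshold, 16 lost and 6 gained it, and Egfr with Errfi1 turned to 0.12 on plate 3. Hbegf with Erbb2 lost its call in 10 of 15 settings. Calls with marker lists numbered 51, and 40 by Spearman's rho, 51 with all arrays and 62 median centred. No paired analysis was possible because the labels give no replicate numbers and those used here follow accession order.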
